A study of Homo sapiens with 6 samples.

Results

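The 10 genes described here encode enzymes that attach acetyl or lactyl groups to histones or supply the acyl donor, and they were measured in macrophages with and without knockdown of the lactate exporter MCT4. They were chosen by symbol and comprised the lysine acyltransferases EP300, CREBBP, KAT2A, KAT2B, KAT5, KAT7 and KAT8, the alanyl-tRNA synthetases AARS1 and AARS2, and the acetyl-CoA synthetase ACSS2. Each matched 1 row, so 10 of the 35009 genes of the deposited table were members. The cells were THP-1, a human monocytic leukaemia line, differentiated to macrophages and treated with oxidised low-density lipoprotein (ox-LDL). The libraries were polyadenylated RNA, 3 from ox-LDL cells labelled control and 3 from ox-LDL cells labelled as MCT4 deficient (siMCT4). No label mentions a non-targeting siRNA in the controls, so effects of MCT4 knockdown and of siRNA delivery cannot be told apart. Nor do the labels state that a group's libraries were separate cultures. The p-values therefore measure the spread between these libraries.

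Lysine acyltransferases take an acyl group from its coenzyme A thioester and place it on the side chain of lysine. On histone tails this weakens the hold of DNA and makes a docking site for bromodomain and YEATS domain proteins, and it marks active promoters and enhancers. Several of these enzymes accept donors other than acetyl-CoA. Lactylation of histones, described in macrophages that make much lactate, has been attributed to EP300 among others, and AARS1 and AARS2 can transfer lactate to lysine directly at the cost of ATP. The study's title names lactylation of histone H3 lysine 18.

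EP300, CREBBP and KAT2B were higher in siMCT4 macrophages, while AARS1 and ACSS2 were lower. KAT5 and KAT7 were lower by a small margin that most other settings did not hold, and KAT2A, KAT8 and AARS2 did not pass the test. In all, 3 of the 10 members were called higher and 4 lower, at a Benjamini-Hochberg adjusted p under 0.05 over 19944 genes (edgeR, quasi-likelihood; adjusted p below are from this fit unless a setting is named). All 10 passed the filter on low counts. Of all tested genes 41.4% were called, 20.6% as higher and 20.8% as lower. The FPKM values of the groups did not overlap for 6 of the 10 members and for 55.1% of all tested genes. On the scaled counts used for the test, KAT2A, KAT5 and KAT7 also did not overlap, KAT8 did, and the share of all tested genes was 55%. The median log2 change of the 10 members was -0.09, against -0.01 over all genes tested. ACSS2 changed more than 78% of tested genes, EP300 more than 63.1%, AARS1 more than 59.7% and KAT2B more than 54.7%, in absolute log2 change.

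The targeted gene SLC16A3, which encodes MCT4, had 7708, 6428 and 6848 counts in the controls and 691, 768 and 949 in siMCT4, a log2 change of -3.2 with an SE of 0.102 and adjusted p = 1.12e-06. Transcript thus remained in siMCT4, at 0.109 times the control level, and protein was not measured. Total counts per library ran from 61880619 to 69181938. All 10 macrophage and monocyte markers looked up were detected, with a summed FPKM (fragment counts scaled to gene length and library size) of 1344 to 1368 in controls and 1242 to 1284 in siMCT4, and 6 of the 10 fell. Of other cell types, the 5 epithelial markers summed to 0.0174 to 0.0459 FPKM in controls and 0.0317 to 1.19 FPKM in siMCT4. Among them KRT8 rose (13, 9 and 14 counts in controls, 122, 56 and 13 in siMCT4; log2 change 2.36, adjusted p = 0.0453), KRT18 had 0, 0 and 4 counts against 172, 112 and 0, and EPCAM, KRT19 and CDH1 were at 0 in the controls and at 0 to 18 counts in siMCT4. The fibroblast collagen COL1A2 had 0 counts in every control and 1892, 1782 and 0 in siMCT4, so libraries 1 and 2 stood apart from library 3 in KRT18 and COL1A2. Summed levels in controls and siMCT4 were 0.55 to 0.606 and 2.27 to 2.63 FPKM for B cell markers, 60.7 to 63 and 42 to 43.4 for endothelial markers, which PECAM1 leads, and 0.506 to 0.714 and 0.994 to 3.16 for fibroblast markers. TRAC, the one T cell marker analysed here, stood at 10.8 to 13.8 and 2.12 to 2.32 FPKM. The part of these differences in the members' values was not tested. In siMCT4 library 3 alone against the controls, a comparison whose spread comes from the controls only, the log2 changes were 0.635 for EP300, 0.397 for CREBBP, 0.654 for KAT2B, -0.751 for AARS1 and -1.074 for ACSS2. Genes rich in G and C were uneven among the siMCT4 libraries: the 338 genes of at least 64% GC had median log2 ratios to the control mean of -1.04, -1.17 and -0.19 in siMCT4 libraries 1, 2 and 3. The members had a GC content of 43.9% to 59.1%. For genes below 45% GC the medians in siMCT4 libraries 1, 2 and 3 were 0.064, 0.060 and 0.104. For genes from 45% to 50% they were 0.058, 0.074 and -0.018, and from 50% to 55% 0.026, 0.025 and -0.083. From 55% to 60% they were -0.12, -0.11 and -0.14. In bulk RNA, fewer cells of a type and less RNA per cell cannot be told apart.

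Levels are compared between genes on the FPKM scale, which divides by gene length. Changes between groups were tested on scaled counts, where siMCT4 sits lower relative to controls than it does in FPKM. Log2 changes therefore differ from the ratios of the FPKM means. In controls AARS1 was the highest member at 29.5 ± 1.04 FPKM (SD, n = 3; every ± below is over the 3 libraries of a group), followed by EP300, ACSS2, KAT2A, KAT5, AARS2 and KAT7, each apart from the next in all 3 libraries. CREBBP, KAT2B and KAT8 were the lowest at 3.64 ± 0.329, 3.37 ± 0.273 and 3.03 ± 0.175 FPKM, and each overlapped its neighbour. In siMCT4 the order changed at the top and in the middle. EP300 stood first at 23.8 ± 0.297 FPKM with AARS1 overlapping it at 21.7 ± 2.68 FPKM. ACSS2 moved from the third to the fifth place at 7.31 ± 0.755 FPKM and overlapped KAT5 above it and AARS2 below it. KAT2B and CREBBP passed KAT7.

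**Figure D1:**
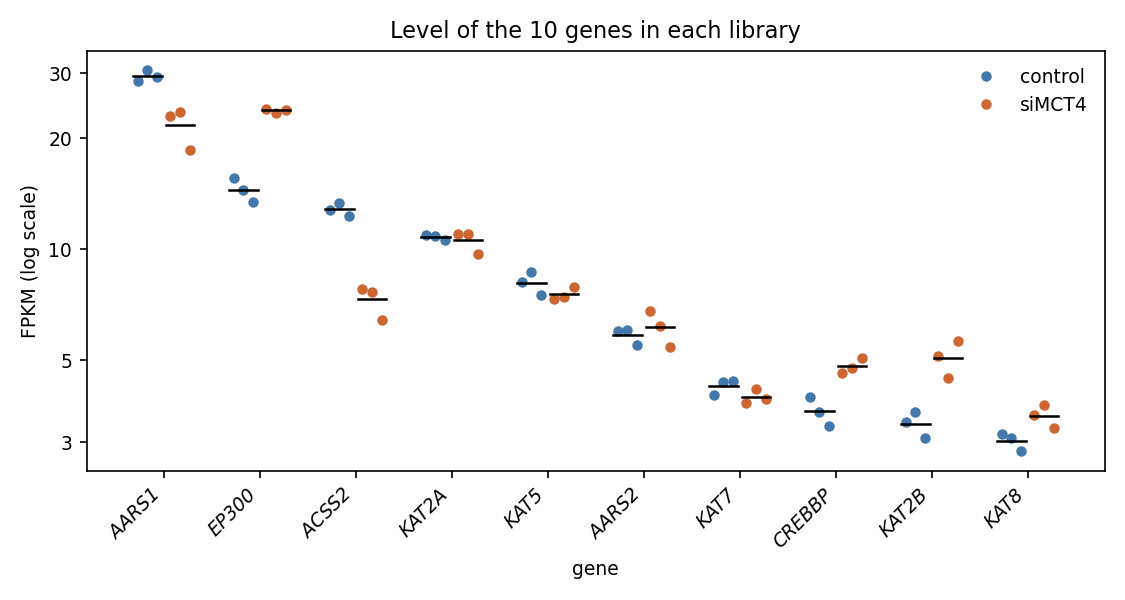
FPKM of the 10 genes in each library on a log axis, genes ordered by their control mean; blue points are the 3 control and orange points the 3 siMCT4 libraries, and black bars the group means. EP300 rises from a mean of 14.5 to 23.8 FPKM and ACSS2 drops from 12.8 to 7.31 FPKM without overlap, while the points of KAT2A and AARS2 overlap.

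EP300 (ENSG00000100393; GRCh38 chromosome 22, 41092592 to 41180077, + strand, protein coding) encodes p300, the acetyltransferase and transcriptional coactivator that writes acetylation at histone H3 lysines 18 and 27. It stood at 15.6, 14.5 and 13.4 FPKM in control libraries 1, 2 and 3 and at 24.0, 23.4 and 23.9 FPKM in siMCT4. All siMCT4 libraries were above all controls, and they lay closer together than the controls did. The fold was 1.52 (log2 change 0.61, SE 0.0571, adjusted p = 0.00016). EP300 kept its call in all 18 alternative settings. On the opposite strand the table lists EP300-AS1, an antisense transcript that overlaps EP300 over 5487 bases. It held 6 to 23 counts per library against 11204 to 20582 for EP300. Whether counting used strand is not given in the sources used here. As counted, reads of EP300-AS1 amount to 0.0909% of those of EP300, a share that may itself depend on that setting.

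CREBBP (ENSG00000005339; chromosome 16, 3725054 to 3880713, - strand, protein coding) encodes CBP, the paralogue of p300 with the same catalytic and bromodomain layout. Its levels were 3.97, 3.62 and 3.31 FPKM in controls and 4.63, 4.76 and 5.09 FPKM in siMCT4, without overlap. It rose 1.23-fold (log2 change 0.30, SE 0.0750, adjusted p = 0.0158). The call was lost without control replicate 2 (adjusted p = 0.0710) or control replicate 3 (adjusted p = 0.0629), and it held when each other library was left out. On TPM the log2 change of CREBBP was 0.475. Over all alternatives the adjusted p of CREBBP ran from 0.0023 to 0.0710. Within a library EP300 was 3.93 to 4.06 times CREBBP in controls and 4.70 to 5.19 times in siMCT4. The ratio was higher in every siMCT4 library than in any control. The exact two-sided permutation test of this log2 ratio gave p = 0.1, the smallest that 20 assignments of 3 against 3 allow.

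KAT2B (ENSG00000114166; chromosome 3, 20040446 to 20154404, + strand, protein coding) encodes PCAF, a catalytic subunit of the SAGA and ATAC coactivator complexes that acetylates histone H3 lysine 9. It had 3.40, 3.63 and 3.08 FPKM in controls and 5.14, 4.49 and 5.63 FPKM in siMCT4. The groups did not overlap, though siMCT4 library 2 was the nearest to the controls. The rise was 1.40-fold (log2 change 0.49, SE 0.103, adjusted p = 0.00753) and the call held in all 18 alternatives.

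KAT2A (ENSG00000108773; chromosome 17, 42113111 to 42121367, - strand, protein coding) encodes GCN5, which takes the same catalytic place as PCAF in SAGA and ATAC. Unlike KAT2B it did not pass: its levels were 10.9, 10.9 and 10.6 FPKM in controls and 10.99, 11 and 9.71 FPKM in siMCT4, and the FPKM groups overlapped. The CPM groups of KAT2A did not overlap, as for 55% of all tested genes. Its log2 change on the CPM scale was -0.14 (SE 0.0644, adjusted p = 0.123), and turned to 0.09 after GC correction and to 0.06 on TPM. Against the control mean, siMCT4 libraries 1, 2 and 3 stood at -0.09, -0.08 and -0.26. CPM is the count scaled to the library total after TMM scaling. The GC content of KAT2A is 59%, that of KAT2B 43.9%. KAT2A stood 3.22, 3.00 and 3.44 times above KAT2B in the controls and 2.14, 2.45 and 1.73 times above it in siMCT4. The log2 ratio differed by -0.62 with no overlap (exact permutation p = 0.1, the smallest possible), and the difference was -0.37 after GC correction.

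KAT5, KAT7 and KAT8 form with others the MYST family, and their changes were small. KAT5 (ENSG00000172977; chromosome 11, 65711996 to 65719604, + strand) encodes TIP60, the catalytic subunit of NuA4, which acetylates histone H4 and H2A and takes part in the repair of DNA breaks. Its mean CPM went from 33.9 ± 2.00 in controls to 29.3 ± 1.17, a log2 change of -0.21 (SE 0.0691, adjusted p = 0.0441). The CPM groups did not overlap, as for 55% of all tested genes, but the FPKM groups did. The call held in 2 of 18 alternatives, without control replicate 3 and without siMCT4 replicate 3. It was lost without any of the other libraries in turn (adjusted p = 0.152, 0.196, 0.176 and 0.155 without control replicates 1 and 2 and siMCT4 replicates 1 and 2), and with GC correction the change of KAT5 was -0.06. Over all alternatives its adjusted p ran from 0.0280 to 0.932. RNASEH2C, on the opposite strand, shares 5600 bases with KAT5 and had 28.9% as many counts. It fell as well (log2 change -0.59, adjusted p = 0.0288), so reads of the pair cannot be told apart unless strand was used.

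KAT7 (ENSG00000136504; chromosome 17, 49788648 to 49829096, + strand) encodes HBO1, which acetylates histone H3 lysine 14 and histone H4 at replication origins and gene bodies. Control libraries averaged 55.8 ± 2.61 CPM, and siMCT4 libraries 48.3 ± 2.25 (log2 change -0.21, SE 0.0612, adjusted p = 0.0306). The call was lost in 11 of 18 alternatives, among them without control replicates 2 or 3 (adjusted p = 0.107 and 0.105), without siMCT4 replicates 1 or 3 (adjusted p = 0.156 and 0.0544) and on TPM, where the change was 0.00 to the second decimal. Over all alternatives the adjusted p of KAT7 ran from 0.0175 to 0.965. FAM117A overlaps KAT7 over 518 bases on the opposite strand and had 14.2% as many counts (log2 change 0.15, adjusted p = 0.445). KAT8 (ENSG00000103510; chromosome 16, 31114489 to 31131393, + strand) encodes MOF, the histone H4 lysine 16 acetyltransferase of the MSL and NSL complexes. It had 3.17, 3.09 and 2.83 FPKM in controls and 3.55, 3.79 and 3.28 FPKM in siMCT4, apart by a narrow gap, while its CPM values overlapped. Its log2 change was 0.12 (SE 0.0823, adjusted p = 0.304), and it passed as higher after GC correction (0.23, adjusted p = 0.0459) and on TPM (0.29, adjusted p = 0.0214). A pair of long noncoding RNAs on the strand of KAT8 overlap it, with 8.34% and 3.82% as many counts.

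Summed over the 7 acyltransferases, the level was 47.7 ± 2.2 FPKM in controls and 59.4 ± 0.208 FPKM in siMCT4. Part of this rise is a difference of scale, since siMCT4 sits higher relative to controls in FPKM than in CPM. EP300 averaged 14.5 and 23.8 FPKM in controls and siMCT4 but 189 and 288 CPM. AARS2, outside the sum, averaged 5.85 and 6.15 FPKM but 34.3 and 33.4 CPM. EP300 alone made up 30.4 ± 1.11% of this sum in controls and 40.1 ± 0.357% in siMCT4. The lowest siMCT4 share was 39.7% and the highest control share 31.6%. This sum was formed after the members' values were seen and was not tested.

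**Figure D2:**
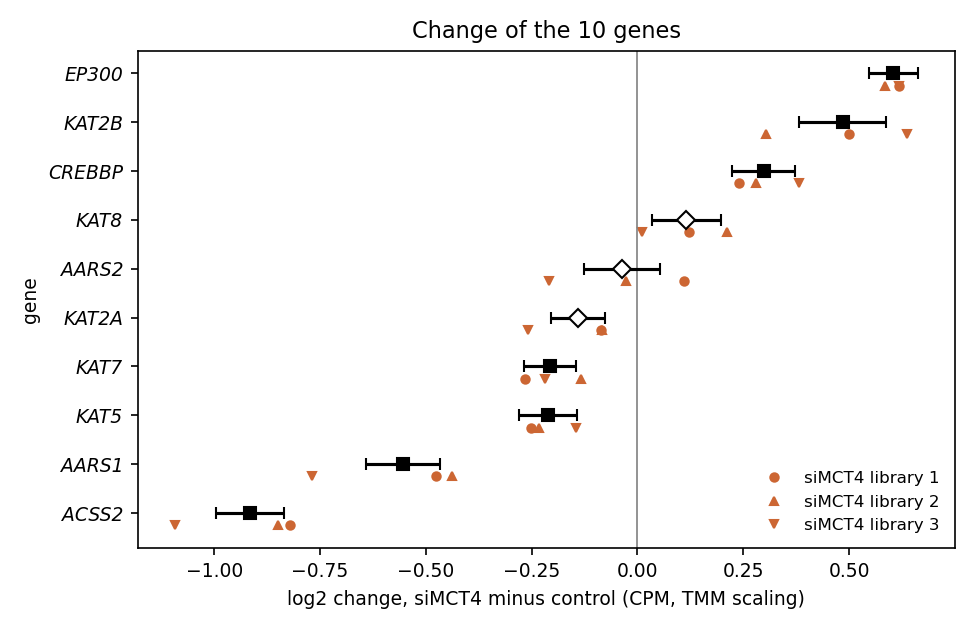
Log2 change of the 10 genes, siMCT4 minus control, with bars of 1 SE; filled squares are genes called at an adjusted p under 0.05, open diamonds are not called, and orange symbols below each give siMCT4 libraries 1, 2 and 3 against the control mean. The 3 siMCT4 libraries of EP300 sit between 0.58 and 0.62, those of ACSS2 between -1.09 and -0.82, and those of AARS2 on both sides of 0.

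AARS1 (ENSG00000090861; chromosome 16, 70251983 to 70289707, - strand, protein coding) charges alanine onto its tRNA in the cytosol and, like AARS2, has been reported to transfer lactate to lysine. Its levels were 28.6, 30.6 and 29.4 FPKM in controls and 22.9, 23.5 and 18.6 FPKM in siMCT4. No siMCT4 library reached the controls, and library 3 was the lowest. AARS1 was 1.47-fold lower (log2 change -0.55, SE 0.0866, adjusted p = 0.00186) and kept its call in all 18 alternatives, the log2 change of AARS1 being -0.36 (adjusted p = 0.0179) on TPM. DDX19B overlaps AARS1 over 45 bases on the opposite strand and had 9.97% as many counts (log2 change -0.20, adjusted p = 0.0559). AARS2 (ENSG00000124608; chromosome 6, 44298731 to 44313347, - strand, protein coding), the mitochondrial alanyl-tRNA synthetase, did not pass. It stood at 5.99, 6.04 and 5.52 FPKM in controls and 6.82, 6.20 and 5.44 FPKM in siMCT4, with overlap. The log2 change of AARS2 was -0.04 (SE 0.0896, adjusted p = 0.777) and turned positive in 6 of 18 alternatives, reaching 0.20 (adjusted p = 0.165) after GC correction. A transcript on the opposite strand, ENSG00000272442, overlaps the whole of AARS2, with 89 and 60 counts in control libraries 1 and 2 and 0 in the other 4. AARS1 was 4.77 to 5.32 times AARS2 in controls and 3.36 to 3.80 times in siMCT4. This log2 ratio differed by -0.52 without overlap (exact permutation p = 0.1, the smallest possible). Adjusted over the 3 ratios, each exact permutation p was 0.1.

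**Figure D3:**
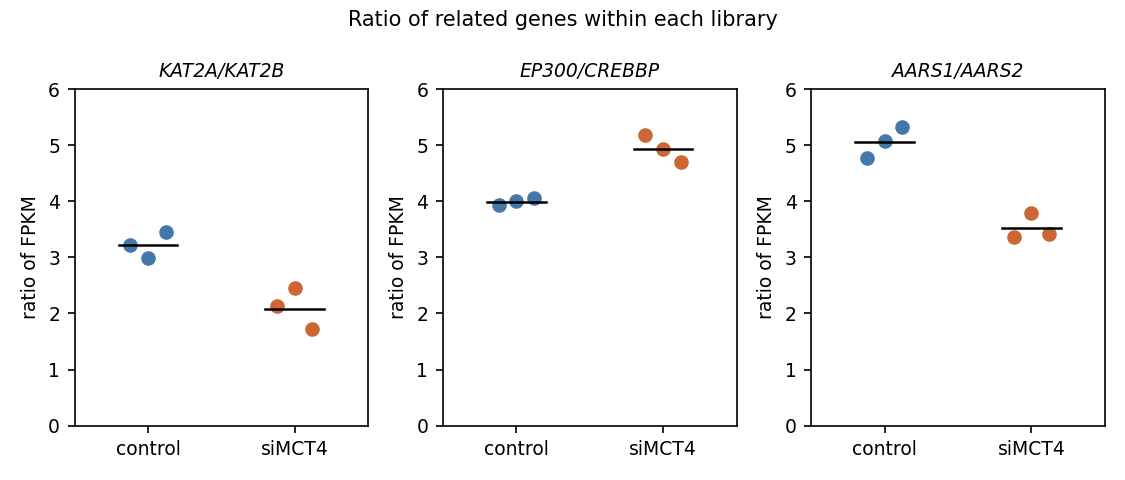
Ratio of the FPKM of KAT2A to KAT2B, EP300 to CREBBP and AARS1 to AARS2 in each library, with bars at the geometric mean; axes start at 0. In each pair the 3 siMCT4 points (orange) lie apart from the 3 control points (blue): lower for KAT2A/KAT2B and AARS1/AARS2, higher for EP300/CREBBP.

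Of the 19 other cytosolic aminoacyl-tRNA synthetases 12 fell, 2 rose and 5 did not pass, with a median log2 change of -0.43. TARS1 (-0.88), GARS1 (-0.75), VARS1 (-0.69) and EPRS1 (-0.54) were the members with the smallest adjusted p, 6.15e-06 for TARS1 and 5.67e-05 for EPRS1 being the ends of their range. They charge threonine, glycine, valine, and glutamate with proline. The 16 other mitochondrial synthetases had 1 higher, 3 lower and 12 not passing, with a median of -0.12. Many cytosolic synthetase genes are known targets of ATF4, the transcription factor of the integrated stress response, which binds composite elements with the core TGATGNAA. The promoter window of AARS1 is shown because it holds this core, and because AARS1 is the member that fell with its relatives. It spans 250 bases before to 50 after the start given by RefSeq (GRCh38.p14, chr16:70289457-70289756, - strand). The match is in capitals, on the opposite strand and 187 bases before that start. In the deposited table the first base of AARS1 is at 70289707, so the match lies inside the span of the measured gene.

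AARS1 promoter: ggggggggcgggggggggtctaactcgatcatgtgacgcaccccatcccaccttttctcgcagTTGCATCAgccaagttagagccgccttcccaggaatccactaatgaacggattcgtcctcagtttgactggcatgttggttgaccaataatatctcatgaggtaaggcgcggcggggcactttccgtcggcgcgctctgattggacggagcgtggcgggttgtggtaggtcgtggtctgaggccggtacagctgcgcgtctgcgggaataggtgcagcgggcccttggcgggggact

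The core occurs on either strand in 3.62% of the 35116 RefSeq promoters of this length. It occurs in the windows of 7 of the 16 cytosolic synthetases with an entry, AARS1 included, and in 1 of 14 mitochondrial ones. The 7 genes were all among the 10 of these 16 that were called lower. The 7 sites are given below in the strand that reads TGATGNAA, 30 bases each, with the core in capitals. A match is a run of letters and was not tested for binding. Whether the matches or ATF4 have a part in the lower levels was not tested either, and the motif was chosen with earlier results of these data known.

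AARS1 (chr16:70289675-70289704): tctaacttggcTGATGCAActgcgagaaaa
CARS1 (chr11:3057407-3057436): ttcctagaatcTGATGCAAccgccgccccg
GARS1 (chr7:30594834-30594863): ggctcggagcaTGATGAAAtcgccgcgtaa
IARS1 (chr9:92293692-92293721): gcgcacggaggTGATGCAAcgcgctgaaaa
MARS1 (chr12:57488053-57488082): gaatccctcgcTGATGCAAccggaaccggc
NARS1 (chr18:57621804-57621833): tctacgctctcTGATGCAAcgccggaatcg
TARS1 (chr5:33440956-33440985): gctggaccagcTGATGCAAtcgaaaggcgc

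Apart from GARS1, all sites share the same letters in capitals. The sites of AARS1, CARS1, GARS1, IARS1, MARS1 and TARS1 are on the strand opposite to the gene and that of NARS1 on the gene's own strand. Beside AARS1, GARS1 and TARS1, the genes holding a site were CARS1 (log2 change -0.71), IARS1 (-0.43), MARS1 (-0.44) and NARS1 (-0.38). None of the other 7 members with a promoter entry (EP300, CREBBP, KAT2A, KAT2B, KAT5, KAT7 and ACSS2) held this core in that window.

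ACSS2 (ENSG00000131069; chromosome 20, 34872146 to 34927962, + strand, protein coding) makes acetyl-CoA from free acetate in the cytosol and nucleus, and has been reported to make lactyl-CoA from lactate. It had the largest change of the 10 genes. Its levels were 12.8, 13.4 and 12.3 FPKM in controls and 7.83, 7.67 and 6.45 FPKM in siMCT4, with every siMCT4 library far below every control. ACSS2 was 1.89-fold lower (log2 change -0.92, SE 0.0802, adjusted p = 0.00011) and kept its call in all 18 alternatives. GGT7, which overlaps it over 711 bases on the opposite strand and had 17.2% as many counts, also fell (log2 change -0.58, adjusted p = 0.00477). ACSS2 is a known target of the SREBP factors, which drive sterol and fatty acid synthesis. Of 16 genes of that programme, SREBF1 and SREBF2 included, 0 rose, 10 fell and 6 did not pass, with a median log2 change of -0.42. The sterol synthesis enzymes SQLE (-1.17), FDFT1 (-0.86) and HMGCS1 (-0.53) and the fatty acid desaturase SCD (-0.64) fell. Neither of the promoter windows that RefSeq gives for ACSS2 holds the sterol regulatory element TCACNCCAC, searched on both strands, which 1.13% of promoters hold. These windows begin at 34874739 and 34876362, inside the span of ACSS2, so the sequence around its first base at 34872146 was not searched. Control of ACSS2 by the SREBP factors was not tested. The core of the interferon-stimulated response element, held by 3.57% of promoters, matched in no member's window.

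Other genes of acyl-CoA supply were mixed, with 2 of 14 higher, 5 lower and 7 not passing (median log2 change -0.12). The pyruvate dehydrogenase component PDHX rose by 0.64 on the log2 scale and the acetyl-CoA transporter of the endoplasmic reticulum SLC33A1 by 0.33. The carnitine acetyltransferase CRAT fell by 0.73. The mitochondrial citrate carrier SLC25A1 fell by 0.84, but by 0.05 after GC correction (adjusted p = 0.73), at a GC content of 66.2%. ACLY, named after its values were seen, makes acetyl-CoA from citrate and had 45.9 ± 2.01 FPKM in controls and 48.8 ± 3.56 FPKM in siMCT4, a log2 change of -0.02 on the CPM scale (adjusted p = 0.804).

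The partners of the members did not move in 1 direction. In SAGA and ATAC, 6 of 23 subunits rose, 1 fell and 16 did not pass (median log2 change 0.18). The core subunits SUPT20H (0.82) and SUPT7L (0.40) and the deubiquitinase adaptor ATXN7L3 (0.41) rose, and the deubiquitinase USP22 fell by 0.37 (by 0.17 with adjusted p = 0.0991 on TPM). In NuA4, 5 of 17 rose, 4 fell and 8 did not pass (median -0.08). The MRG domain subunit MORF4L2 rose by 0.60 from 60.8 ± 1.35 to 99.7 ± 2.79 FPKM, and the helicase RUVBL1 by 0.84, while the scaffold ATPase EP400 fell by 0.67. Among the scaffolds of KAT7, 1 of 9 rose, 3 fell and 5 did not pass (median -0.06). JADE1, which directs HBO1 to histone H4, rose from 1.78 ± 0.172 to 5.63 ± 0.0862 FPKM (log2 change 1.55, adjusted p = 8.4e-06). BRPF3, which directs it to histone H3, fell from 22.8 ± 1.29 to 17.3 ± 0.325 FPKM (log2 change -0.51, adjusted p = 0.0002). In the MSL and NSL complexes of KAT8, 5 of 11 rose, 2 fell and 4 did not pass (median 0.16), with PHF20 (0.55), KANSL3 (0.49) and KANSL1 (0.36) higher and the WD repeat adaptor WDR5 lower (-0.55).

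Of 19 other lysine acetyltransferases and related enzymes 9 rose, 2 fell and 8 did not pass (median log2 change 0.19). The nuclear receptor coactivators NCOA3 (0.44) and NCOA2 (0.59) rose. ESCO2, the cohesin acetyltransferase of S phase, fell by 1.40 and NAA10, an N-terminal acetyltransferase, by 0.87. Readers of acetylated or lactylated lysine had 3 of 11 higher, 1 lower and 7 not passing (median 0.10). BRD2 rose by 0.40. SMARCA4, the ATPase of the BAF remodeller, fell by 0.35 but had -0.11 after GC correction (adjusted p = 0.111). TRIM33 rose by 0.24 (adjusted p = 0.0179) but lost its call without control replicate 1, 2 or 3 (adjusted p = 0.0558, 0.0736 and 0.0647).

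Among 16 genes listed as partners of EP300 and CREBBP, 5 rose, 5 fell and 6 did not pass (median -0.30). Whether each of them binds EP300 or CREBBP was not examined here. The ubiquitin ligase DTX3L rose by 0.90. MYB, a factor of immature blood cells, fell by 1.99 and HIF1A, the hypoxia factor, by 0.89. Over all 11 of these lists, 38 of 167 genes rose and 48 fell, 51.5% together against 41.4% of all tested genes. Ranked by the mean absolute difference of log2 CPM ratios to the control mean over the 6 libraries, the genes of these lists most like EP300 were NCOA2 (0.03), MAML1 (0.05) and PHF20 (0.05). Those most like CREBBP were NCOA1 (0.06), ATF2 (0.06) and SLC33A1 (0.06).

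**Figure D4:**
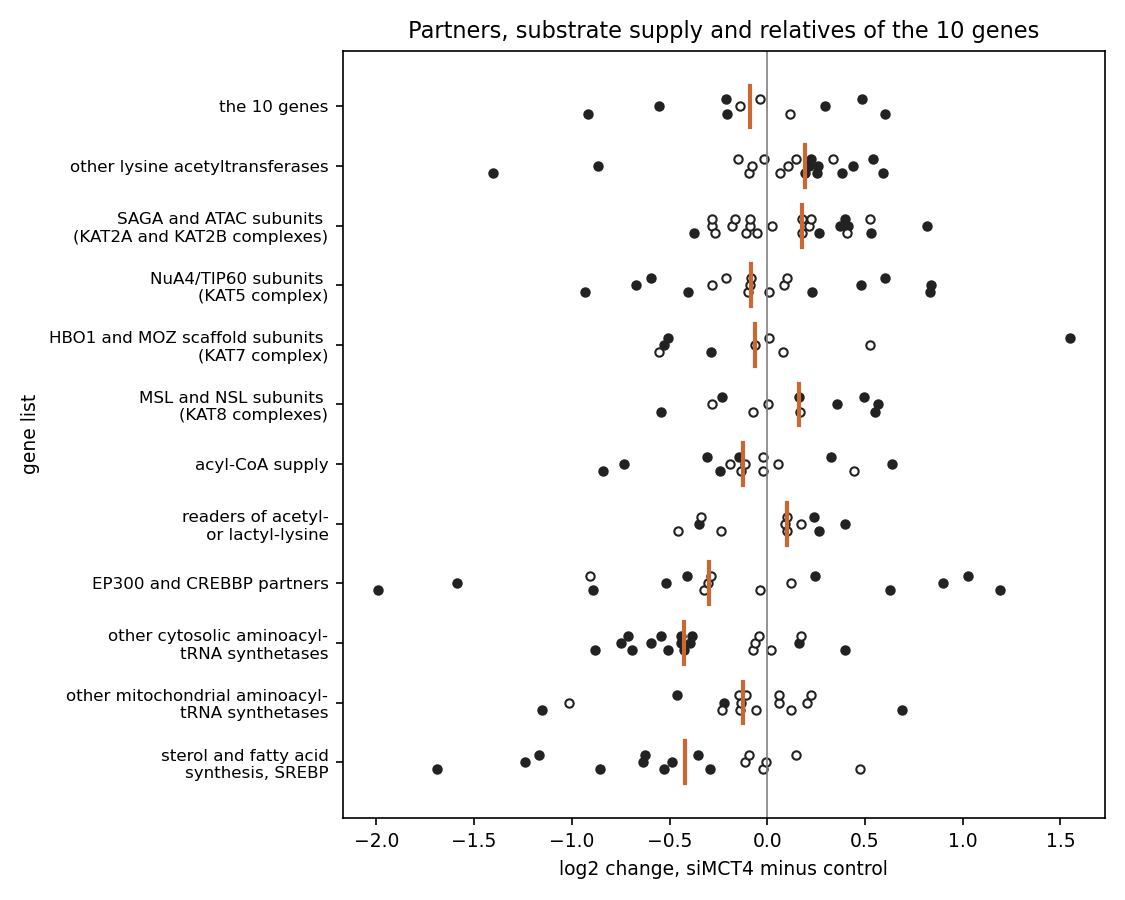
Log2 change of each tested gene in the 11 lists of partners, relatives and substrate supply, with the 10 genes on top; filled points are called at an adjusted p under 0.05, open points are not, and orange bars are list medians. Points lie on both sides of 0 in each list, with medians at -0.43 for the other cytosolic synthetases and -0.42 for the sterol and fatty acid list.

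**Figure D5:**
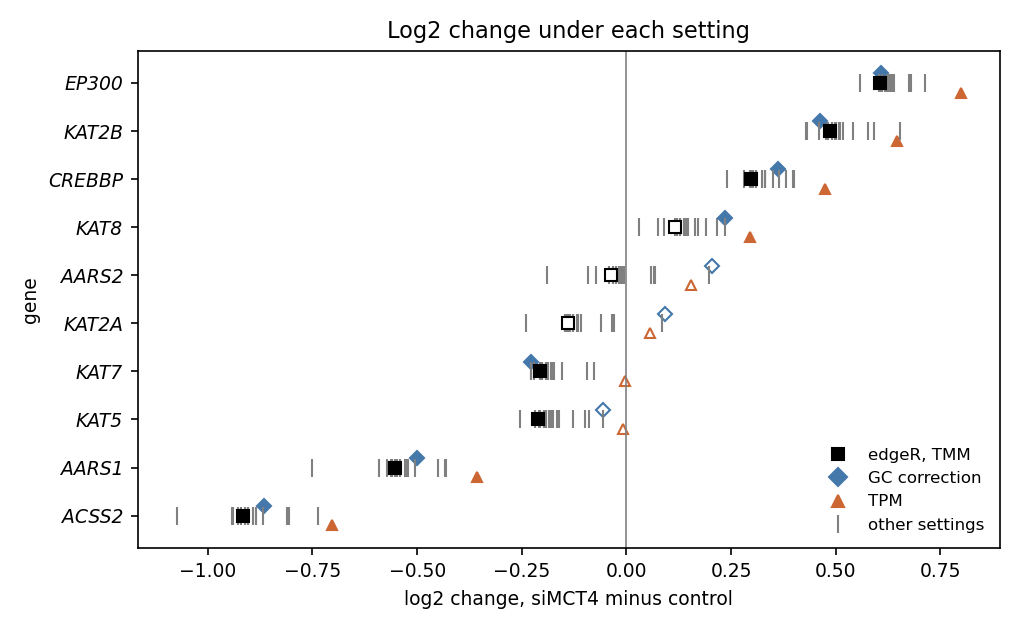
Log2 change of the 10 genes under the reported setting (black squares), GC correction (blue diamonds), TPM (orange triangles) and 16 other settings (grey ticks); open symbols are not called, and ticks do not show calls. EP300, KAT2B and CREBBP stay above 0 and AARS1 and ACSS2 below it throughout, while KAT2A and AARS2 cross 0.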

How the data were processed

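RNA of 6 libraries was trimmed with cutadapt 1.9 and aligned with HISAT2 2.2.1 to GRCh38, per the submitters' processing notes, after a strand-marking preparation per the labels' protocols. Which tool counted the reads, and with or without strand, is not given in the sources used here. The deposited table holds raw counts per gene, not normalized, and FPKM, per the file headers, and 0 of its 12 columns of library values went unused. Among counts of 2 to 41, even values took 58.7% to 60.9%, so mates may have been counted separately.

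Counts were tested with edgeR 4.0.16 in R 4.3.3 (quasi-likelihood test, two-sided, TMM scaling, group as the sole factor, filterByExpr with a smallest count of 10 and total of 15, which left 19944 genes). SE is the log2 change over the square root of F. The edgeR, DESeq2, replicate block and GC steps were run on simulated counts with known changes. Those counts held no GC trend and no replicate effect, so they cannot show whether the GC and block steps remove one. The 18 alternatives include DESeq2 1.42.0, limma 3.58.1 on FPKM (mean FPKM above 0.1) and TPM, and a GC correction that removes each library's trend on GC content (GENCODE v29 transcripts, 33209 of 35009 genes matched). Motifs were searched in RefSeq promoters, which had entries for 8 of the 10 members. Members, lists and motifs were chosen with earlier results of these data known. Named genes are the members, SLC16A3, up to 4 genes of smallest adjusted p per list, the nearest profiles and overlapping genes. A gene that this rule names is not reported here. ACLY, CARS1, IARS1, MARS1 and NARS1 were named after their values were seen. BRDT and CITED1 were not analysed here.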

Additional observations from a re-analysis of the deposited data

How the results depend on the processing

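EP300, KAT2B, AARS1, ACSS2 and SLC16A3 kept direction and call under all 18 alternatives (1 of them, siMCT4 library 3 alone, has 1 library in an arm, takes its spread from the controls only and assumes that the lone library varies like them), with EP300 between 0.56 and 0.80, KAT2B between 0.43 and 0.65, AARS1 between -0.75 and -0.36 and ACSS2 between -1.07 and -0.70. KAT5 was not called with DESeq2 (-0.20), RLE (-0.20) or upper-quartile scaling (-0.18), log2(FPKM + 1) (-0.09), log2(FPKM + 0.1) (-0.10), TPM (-0.009), no filter (-0.21), a filter of 100 counts (-0.18), GC correction (-0.056) or siMCT4 library 3 alone (-0.13). KAT7 was not called with upper-quartile scaling (-0.17), log2(FPKM + 1) (-0.078), log2(FPKM + 0.1) (-0.095), TPM (-0.004), no filter (-0.20) or siMCT4 library 3 alone (-0.20). KAT2A was positive on TPM (0.057) and after GC correction (0.091). With siMCT4 library 3 alone it was -0.239, against -0.086 and -0.083 in siMCT4 libraries 1 and 2, and no call is read from that. KAT8 was called higher on TPM (0.29) and after GC correction (0.23). AARS2 was positive on log2(FPKM + 1) (0.058), log2(FPKM + 0.1) (0.066), TPM (0.154), GC correction (0.205) and without siMCT4 replicate 3 (0.067).

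Whether the replicate numbers mark paired libraries is not given in the labels. Deviations of same-numbered libraries from their group means correlated at -0.14, -0.003 and -0.10, which with 3 libraries per group cannot decide it. With the number as a replicate block CREBBP (0.30, adjusted p = 0.0525), KAT5 (-0.21) and KAT7 (-0.21) were not called, which left 4 members called, 2 of them lower, and 3341 genes higher and 3580 lower. With GC correction and the replicate block KAT2A stood at 0.086, AARS2 at 0.196 and KAT5 at -0.055, the last not called. Lower members numbered 2, in place of 4, also with upper-quartile scaling, both FPKM settings, TPM and no filter. Lower calls over all tested genes moved as well, from 4144 of 19944 in the reported setting. They were 3876 of 19944 with upper-quartile scaling, 3375 and 3350 of 20108 on FPKM, 2773 of 20108 on TPM and 3501 of 35009 with no filter. Leaving out 1 library gave 4 to 6 called members, 2 to 3 of them lower, with CREBBP from 0.24 to 0.38, KAT5 from -0.26 to -0.16, KAT7 from -0.23 to -0.15 and AARS2 from -0.093 to 0.067. Over all tested genes the fewest calls came without control replicate 2 (3409 higher and 3160 lower of 21022). The most came without siMCT4 replicate 3 (4894 higher and 4814 lower of 20861).

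On TPM the median of all genes shifted by 0.14 and 68.2% of calls were higher, against 49.8%, with 59 list genes higher in place of 38. The 3 paralogue ratios kept their sign after GC correction and without each library in turn. Of 47 other named genes 38 kept their call under every alternative, 9 lost it in at least 1, and 0 changed sign. The cause of these differences was not tested.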
